A study of Mus musculus with 3 samples.

Results

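The cytosolic ribosomal protein genes are the genes that encode the protein parts of the ribosomes in the cytoplasm. They were taken as every gene name on the array that has the form of a large subunit gene (Rpl), a small subunit gene (Rps) or a stalk gene (Rplp0, Rplp1 and Rplp2), together with Rpsa, while the ribosomal S6 kinases were left out. This gave 83 genes with 188 probes, of 31131 genes and 39429 probes on the array. The cells were mast cells grown from bone marrow (BMMCs) of male Pafah2-deficient mice on the C57BL/6 background, labelled as 12 weeks old. Pafah2 encodes an intracellular phospholipase, and all groups lacked it, so no wild-type cells were compared. One culture received only the solvent DMSO (vehicle). One received omega-3 fatty acid epoxides at 300 nM, as 17,18-EpETE and 19,20-EpDPE mixed 2 to 3. One received 0.5 µM GW9662, which blocks the nuclear receptor PPAR gamma. All were kept for 12 h, and RNA from each was labelled with Cy3 and hybridised to 1 one-colour array with 60-base probes. Whether a culture came from 1 animal or from pooled animals is not given in the sources used here.

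A ribosome consists of a small subunit, which reads the mRNA, and a large subunit, which joins the amino acids. Each subunit is a core of ribosomal RNA with many proteins on it, most of them present as a single copy and needed in equal amounts. Their mRNAs belong to the most abundant of any growing cell. Many start with a run of pyrimidines called a TOP motif, through which the kinase mTOR and the RNA-binding protein Larp1 control their translation more than their amount. Mammalian genomes also hold many processed pseudogenes of these genes, that is, copies of the mRNA without introns, and a short probe often matches several of them.

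With 1 array in each group there was no replicate, so the spread between cultures is unknown, no test was possible, and the number of arrays limits the precision. Levels below are on the log2 scale, with the 75th percentile of each array set to 0, and a ratio is the difference of 2 such levels. The only error that could be measured was that between copies of a probe on 1 array, whose SD gave for a log2 ratio a technical SD of 0.0821 (epoxides over vehicle), 0.0818 (GW9662 over vehicle) and, between the treated arrays, 0.0786 (epoxides over GW9662). A gene is called lower or higher here, by size alone and with no test, when its log2 ratio was at least 0.32 below or above 0. The Rpl23 probe that was spotted 10 times read 2.43 ± 0.047 with vehicle, 2.54 ± 0.045 with epoxides and 2.49 ± 0.050 with GW9662 (SD over copies, n = 10). The treated arrays have an unsettled assignment. In the deposited value table the columns of the epoxide and GW9662 samples each match the scanner file attached to the other. The arrays are named here by the scanner file, as "the array labelled omega-3 epoxides" and "the array labelled GW9662". If the value table is right, every value of one belongs to the other, and the ratio of epoxides over GW9662 changes sign. Of 43020 spots, 52.3% to 54.6% were well above background and none was saturated. All 12 mast cell markers were above background on every array, with summed log2 levels of 9.47 for vehicle, 9.12 for epoxides and 9.32 for GW9662. Basophil markers were above background for 3 of 3 genes (3.66 to 3.69), macrophage and dendritic cell markers for 6 of 8 (0.87 to 0.91), neutrophil markers for 3 or 4 of 8 (0.42 to 0.98), T and B cell markers for 1 or 2 of 5 (-1.25 to -0.03), erythroid markers for 2 of 5 (0.32 to 0.47) and stromal markers for 1 of 5 (-0.10 to 0.18). Their part in the results was not tested. The Pafah2 probe read 0.03, -0.08 and 0.07, and since the deleted part of the gene is not given in the sources used here, this checks nothing.

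Of the 83 genes, 80 were well above background on all arrays. The other 3 were Rpl10l, Rpl3l and Rpl39l, paralogs known from testis and striated muscle, whose probes were not well above background on any array. The measured genes comprised 31 of the small subunit, 42 of the large subunit, the 3 stalk genes and 4 of 7 paralogs. Since these are bulk RNA samples, fewer cells with a high content of these mRNAs and less of them per cell cannot be told apart.

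On the array labelled omega-3 epoxides most ribosomal protein genes had a lower relative level than with vehicle. The log2 ratio was below 0 for 73 of 80 (against 61.1% of the 15812 genes measured in this comparison), with a median of -0.27 beside -0.07 over all genes. Called lower were 29 members (background 20.5%), and the paralog Rps4l alone was called higher (background 5.26%). With normexp background correction Rps4l had a ratio of 0.29 and was not called. No member reached 2-fold in either direction, where the background was 2.07% lower and 0.215% higher. The ratio was lower than 0 by more than the technical SD for 65 members (background 48.7%) and higher by more than it for 2 (background 26.5%). The probes of this class are bright, and among the 913 other genes read at a mean level of 5 or more, 830 had a ratio below 0, 261 were called lower and the median was -0.24. How far the members lay below 0 depended on how the arrays were scaled. With quantile normalization 42 members were below 0 (background 48.6%) and 37 above, none was called lower (background 12.4%) and 3 were called higher (background 9.95%), with a median of -0.01. With cyclic loess 51 were below 0 (background 51.4%), 3 were called lower (background 14.1%) and 2 higher (background 8.1%), with a median of -0.09. Of the calls over all genes 79.6% were on the lower side with 75th percentile scaling, 55.5% with quantile normalization and 63.6% with cyclic loess.

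Among the 31 genes of the small subunit the median ratio was -0.30, 30 were below 0 (background 61.1%) and 14 were called lower (background 20.5%). These were 96.8% and 45.2% of them, beside 90.9% and 28.6% of the other genes at a mean level of 5 or more. Rps13, which encodes a structural protein of this subunit, read 6.78 with vehicle, 6.24 with epoxides and 6.47 with GW9662. Its ratio of -0.54 (1.46-fold lower) was the lowest of all members, with the level of the GW9662 array between those of epoxides and vehicle. This depended on the probe. The other Rps13 probe read 6.18, 5.91 and 6.19, a ratio of -0.27. By that probe the gene would not be called lower, and the vehicle and GW9662 arrays lay together. Rps18, whose product sits in the head of the subunit, read 6.39, 5.85 and 6.23 and had the same ratio of -0.54. By the brightest probes of both genes the epoxide array was the lowest and the vehicle array the highest. Rps16, whose C-terminal tail reaches the tRNA in the decoding site, read 7.15, 6.67 and 7.06 (ratio -0.48). Rps14, a gene of the region lost in a form of human myelodysplasia, read 7.36, 6.90 and 7.39, so that the vehicle and GW9662 arrays lay together and the epoxide array apart. Rps26, one of the genes mutated in Diamond-Blackfan anaemia, showed the same order with 6.93, 6.55 and 6.94. Rps9 read 7.13, 6.80 and 7.02.

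Some genes of the same subunit differed less between the arrays. Rps6, the target of the S6 kinases and the standard readout of mTOR activity at the protein level, read 6.60 with vehicle, 6.67 with epoxides and 6.59 with GW9662, a ratio of 0.07 and the only one above 0 in this subunit. With its probes averaged the ratio was -0.083. Rpsa, also known as the laminin receptor, read 6.72, 6.63 and 6.64 (ratio -0.09). Its next brightest probe had a ratio of -0.48, and with normexp, which read that probe as the brightest, the gene was at -0.47. Rps24 read 7.15, 7.02 and 7.07 (ratio -0.13). Rps21, read by the probe with the lowest GC content of all members (30.0%), was at 4.83, 4.81 and 4.89 (ratio -0.01).

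The stalk of the large subunit recruits the translation factors that use GTP, and Rplp0 anchors it while Rplp1 and Rplp2 form its arms. Rplp1 read 7.09 with vehicle, 6.57 with epoxides and 6.91 with GW9662 (ratio -0.53, 1.44-fold lower). Its other probe had a ratio of -0.13, and with normexp, which read that probe as the brighter one, the gene was at -0.13 and not called. Rplp0 read 7.01, 6.69 and 7.03 (ratio -0.32), and Rplp2 read 7.05, 6.80 and 6.97 (ratio -0.25). The epoxide array was the lowest for all 3 genes. By these probes the order of the other arrays differed between Rplp0 and the arms, for Rplp0 and Rplp2 by less than the technical SD. This order depended on the probe. The other Rplp1 probe read 6.64, 6.51 and 6.77, in the order of Rplp0. Another Rplp0 probe read 6.05, 5.89 and 6.01, in the order of the arms.

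Among the 42 genes of the large subunit proper the median ratio was -0.24, with 38 below 0 (background 61.1%) and 14 called lower (background 20.5%). These were 90.5% and 33.3% of them, near the 90.9% and 28.6% of the other genes at a mean level of 5 or more. The lowest was Rpl18 at -0.46 (6.43, 5.96 and 6.31). Rpl29 read 7.21, 6.79 and 7.16 (ratio -0.41), Rpl37a read 7.34, 6.93 and 7.19 (ratio -0.41) and Rpl28 read 6.64, 6.28 and 6.45 (ratio -0.37). These were lowest on the epoxide array by more than the technical SD against either other array. Rpl4 and Rpl17, whose products line the tunnel through which the new protein leaves, read 5.37, 5.37 and 5.40, and 6.57, 6.58 and 6.47. Their ratios were 0.00 and 0.01, or -0.023 for Rpl4 with normexp and -0.14 for Rpl17 with probes averaged. Rpl23, read by its brightest probe, was at 6.76, 6.70 and 6.68 (ratio -0.06). Rpl5, whose product can bind and hold back the p53 inhibitor Mdm2, read 5.40, 5.34 and 5.48 (ratio -0.06). Rpl10, which joins the subunit late and completes it, read 7.18, 7.29 and 7.05 (ratio 0.11), the highest ratio of this subunit. Its other probes had ratios of -0.24 and -0.08, and the gene was at -0.24 with normexp and at -0.069 with probes averaged. Rpl41, the smallest ribosomal protein, read 7.45, 7.48 and 7.39 (ratio 0.03). Rpl10a read 7.25, 7.04 and 7.11 (ratio -0.20).

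The 4 measured paralogs had ratios from -0.17 to 0.78, with a median of -0.02, and Rps4l alone lay outside the range of the main genes. Rpl22l1, the paralog of Rpl22, read 5.23, 5.06 and 5.19. Rps27l, known as a target of p53, read 5.49, 5.52 and 5.52. Rpl7l1 read -1.37, -1.44 and -1.36. Rps4l was at -4.35 with vehicle, -3.57 with epoxides and -4.18 with GW9662, a ratio of 0.78 and the highest among all members. Its level is near -4.84, the lowest that counted as well above background with vehicle. Its spot also lies in rows 181 to 400 of the 532 rows of the array, where copies of a probe disagreed most. Of all members, 28 were read in these rows. The median ratio of the 26 measured there was -0.24, and that of the 54 outside was -0.30.

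**Figure D1:**
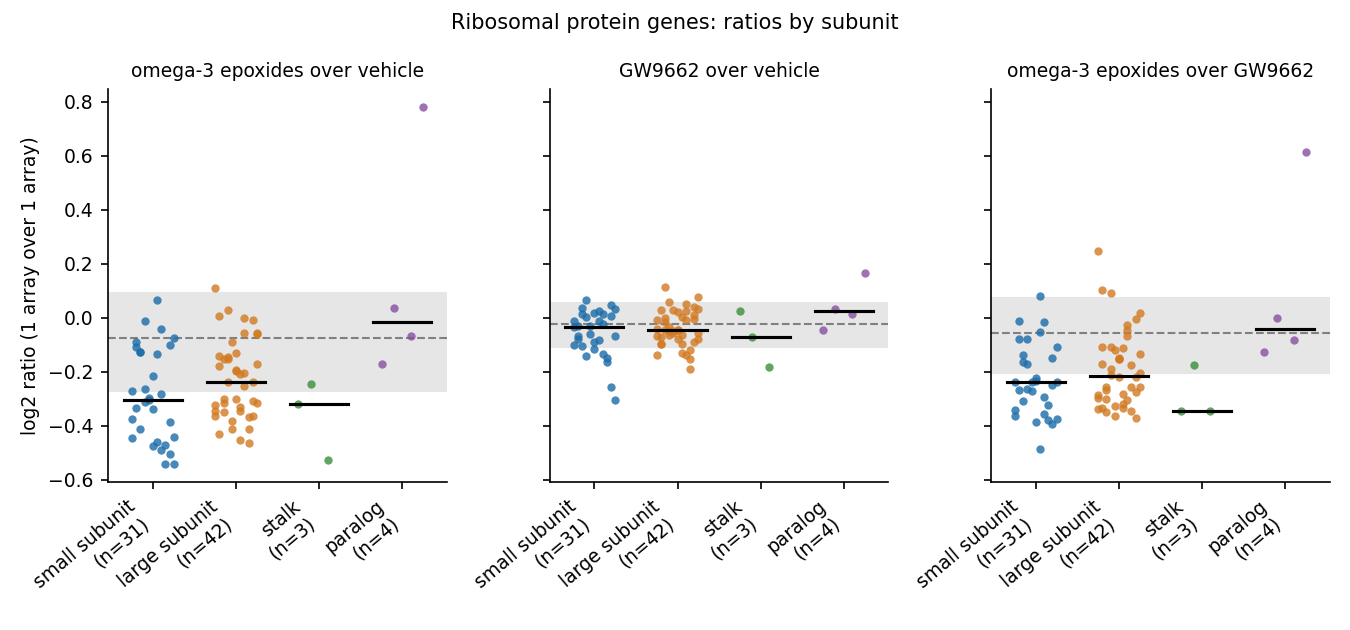
Log2 ratio (vertical axis, 1 array over 1 array) of each of the 80 measured ribosomal protein genes, by subunit, in the 3 comparisons. Black bars are group medians, the dashed line is the median over all genes and the grey band their middle 50%. Most points of both subunits lie below the dashed line in the panels that involve the epoxide array, and on both sides of it for GW9662 over vehicle, where the member median was -0.04 and that of all genes -0.02.

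On the array labelled GW9662 the ribosomal protein genes were close to vehicle. Of 80 genes 54 had a ratio below 0 (background 57.8%), the median was -0.04 beside -0.02 over all genes, and none was called lower or higher (background 4.03% and 1.86%). With quantile normalization 32 were below 0 (background 51.1%) and with cyclic loess 33 (background 51.7%), so the side of 0 depended on the scaling. The ratio passed the technical SD for 22 genes on the lower side (background 31.1%) and 2 on the higher side (background 18.4%). Among the lowest ratios were those of Rps13 (-0.30), Rpl28 (-0.19), Rplp1 (-0.18) and Rps18 (-0.16). The other probes of Rps13 and Rplp1 were not lower, with ratios of 0.005 and 0.13, and those of Rpl28 and Rps18 had -0.12 and -0.08. This comparison and that of epoxides over vehicle share the vehicle array. The highest ratios were those of Rps4l (0.17), Rpl24 (0.11), Rpl5 (0.08), Rps21 (0.07) and Rpl31 (0.06). The other bright genes had a median of -0.05 here, with 1 of 913 called lower.

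The comparison of the treated arrays shares the epoxide array with the first comparison. For epoxides over GW9662, 73 of 80 members had a ratio below 0 (background 61.1%), the median was -0.23 beside -0.06 over all genes, and 19 were called lower (background 14.2%). Rps14 (-0.48), Rps26 (-0.39), Rps16 (-0.39) and Rps18 (-0.38) had ratios among the lowest. Rps4l (0.61), Rpl10 (0.25), Rpl17 (0.10), Rpl41 (0.09) and Rps6 (0.08) had the highest. The other probes of Rpl10 had ratios of -0.18 and -0.06, and those of Rps6 had -0.31 and -0.04. Those of Rpl17 ran from -0.31 to 0.11, and Rps4l and Rpl41 have 1 probe each. With quantile normalization 46 members were below 0 (background 48.3%) and with cyclic loess 59 (background 51.9%). With 75th percentile scaling 72 members were lower on the epoxide array than on both other arrays and 6 were higher than on both. The share of all genes lowest or highest on this array was not counted, so these 2 counts have no background. Of the 913 other bright genes, 830 had a ratio below 0 for epoxides over vehicle and 818 for epoxides over GW9662. The median of the other bright genes was -0.19, with 122 of 913 called lower.

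The ratios of the ribosomal protein genes were related to the base composition of the probes that read them. GC content is the share of G and C among the 60 bases of a probe, and it ran from 30.0% to 55% with a median of 45% for the probes read here. Across the 80 genes, Pearson's r of the epoxides over vehicle ratio with GC content was -0.50, and the ratio was lower by 0.15 for each 10 points of GC. For GW9662 over vehicle r was -0.34 (lower by 0.04 for each 10 points), and for epoxides over GW9662 it was -0.43 (lower by 0.11). Over all genes the corresponding r was -0.48, -0.21 and -0.41, and over the other bright genes it was -0.48, -0.17 and -0.45. These correlations describe genes within the same arrays, which are not independent replicates and which share the vehicle array, the labelling and the scan.

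The median ratio of epoxides over vehicle went down with each class of GC content. It was -0.13 for the 22 genes read by probes under 40% GC, -0.27 for 15 genes from 40 to under 45%, -0.31 for 22 genes from 45 to under 50% and -0.37 for 21 genes at 50% or more. In the first class 1 of the 22 members was called lower, and in the last class 16 of the 21. Over all genes 5.29% and 49.6% of these classes were called lower, and among the other bright genes 10.3% and 55.6%. Other bright genes in the same classes had medians of -0.13 (273 genes), -0.21 (161 genes), -0.27 (301 genes) and -0.34 (178 genes). All genes together, most of them dimmer, had medians of 0.09, -0.05, -0.17 and -0.32. The class medians of the ribosomal protein genes lay 0.22, 0.22, 0.13 and 0.05 below those of all genes. They equalled those of the other bright genes after rounding in the lowest class, and lay 0.06, 0.03 and 0.03 below them in the others. For GW9662 over vehicle the class medians of the members were -0.02, -0.05, -0.02 and -0.07, and those of the other bright genes were -0.03, -0.04, -0.04 and -0.07.

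The relation was loose for single genes. Of the 10 members read at 55% GC, Rps18 and Rplp1 had ratios of -0.54 and -0.53, Rpl10a had -0.20 and Rpl41 had 0.03. Of the 21 members at 50% or more, Rpl41 alone had a ratio above 0. In the other direction Rps14, at 38.3% GC, had a ratio of -0.46. The epoxides over vehicle ratio of the members was also related to their mean level (r = -0.55) and to the row of the spot (r = 0.37). Over all genes the corresponding r was 0.18 and -0.006, and over the other bright genes it was -0.26 and 0.24. Rps4l, with a mean level of -4.03 and the highest ratio, weighs on the r with level, and how much was not measured. The part of level and row in the ratios was not tested.

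**Figure D2:**
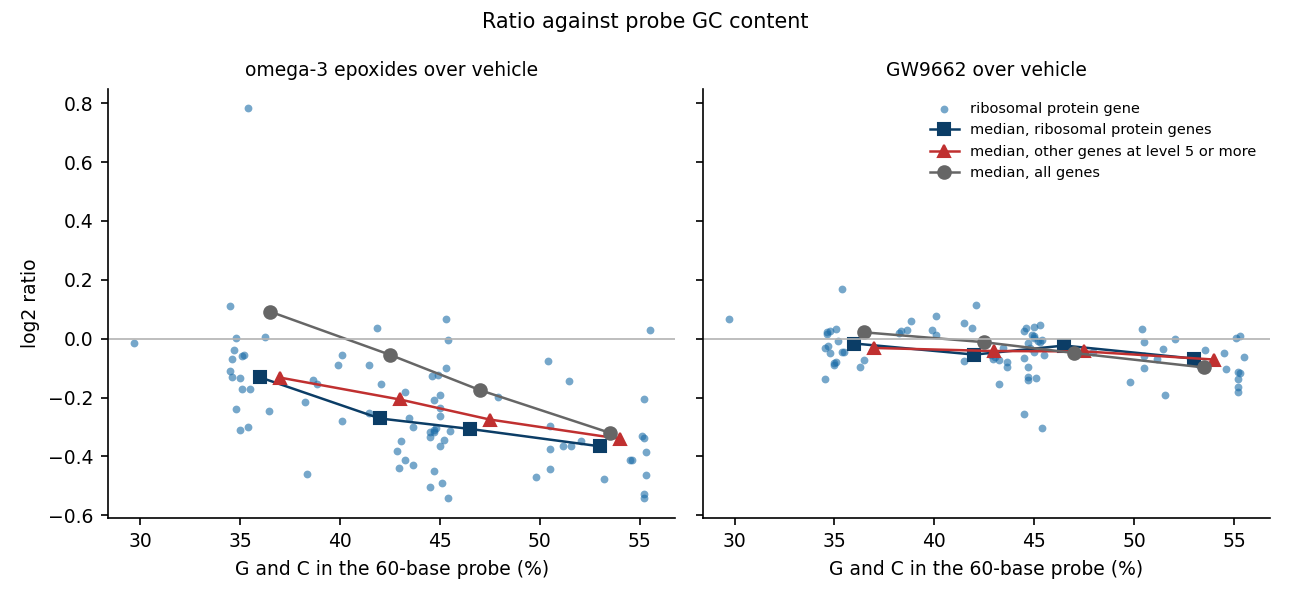
Log2 ratio (vertical axis) of each ribosomal protein gene against the GC content of its probe (horizontal axis, %), for epoxides over vehicle and GW9662 over vehicle; points are shifted slightly sideways. Lines join the medians by GC class of the ribosomal protein genes (squares), the other genes with a mean level of 5 or more (triangles) and all genes (circles). For epoxides over vehicle the squares go from -0.13 to -0.37 and the triangles from -0.13 to -0.34.

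Probes of the same gene allow the comparison within a transcript family. In 44 genes at least 2 probes were above background on all arrays and differed by 5 points of GC or more. The probe with the most G and C had the lower epoxides over vehicle ratio in 35 of these genes and the higher one in 9, with a median difference of -0.16. Where both probes had a mean level of 5 or more, it was lower in 28 of 31 genes. The medians over the 44 genes were -0.14 for the probes with the least G and C and -0.32 for those with the most. With the mean of each gene taken off, r over 159 probes was -0.51 and the slope was -0.14 for each 10 points of GC, beside -0.15 between genes. For GW9662 over vehicle the probe richer in G and C was lower in 26 genes and higher in 18, with a median difference of -0.03.

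Probe pairs from 4 genes are printed below as examples. For epoxides over vehicle those of Rpl35a, Rps18 and Rps2 differed by -0.46, -0.29 and -0.29, each beyond the median difference of -0.16. Those of Rps6 have equal GC content. None of the 9 genes whose probe with the most G and C had the higher ratio is printed. Their differences reached 0.32 in Rpl22. Capitals mark G and C, the probes are written from 5' to 3' as in the array files, and positions are those of the same files on mm9.
Rpl35a, 36.7% GC, chr7:34960859-34960918 (+): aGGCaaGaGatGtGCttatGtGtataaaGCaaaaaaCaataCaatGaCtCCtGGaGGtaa
Rpl35a, 45% GC, chr5:33418852-33418911 (+): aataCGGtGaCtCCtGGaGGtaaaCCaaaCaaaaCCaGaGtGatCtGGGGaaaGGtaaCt
Rps18, 45% GC, chr16:23179634-23179693 (+): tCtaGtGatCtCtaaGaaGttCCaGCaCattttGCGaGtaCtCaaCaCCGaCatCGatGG
Rps18, 55% GC, chr16:23179972-23180031 (+): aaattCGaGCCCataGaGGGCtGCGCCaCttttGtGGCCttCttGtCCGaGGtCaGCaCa
Rps2, 45% GC, chr12:104105381-104105440 (-): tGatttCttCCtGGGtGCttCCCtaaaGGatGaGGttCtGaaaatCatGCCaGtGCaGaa
Rps2, 50% GC, chr17:42864841-42864900 (+): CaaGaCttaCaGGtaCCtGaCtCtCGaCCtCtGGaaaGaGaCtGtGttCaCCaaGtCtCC
Rps6, 45% GC, chr8:91330630-91330689 (+): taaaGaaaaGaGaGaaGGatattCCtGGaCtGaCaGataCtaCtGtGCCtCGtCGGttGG
Rps6, 45% GC, chr15:76168594-76168653 (+): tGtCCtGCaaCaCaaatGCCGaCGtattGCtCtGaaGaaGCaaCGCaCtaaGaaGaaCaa
The first Rpl35a probe read 4.68 with vehicle, 4.90 with epoxides and 4.81 with GW9662, a ratio of 0.22 for epoxides over vehicle. The second, richer in G and C, read 6.03, 5.80 and 6.07, a ratio of -0.24. The epoxide array was thus the highest by one probe and the lowest by the other. The Rps18 probes had ratios of -0.25 and -0.54, and those of Rps2 had -0.09 and -0.37, each time with the lower value at the higher GC. The Rps6 probes have the same GC content and still differed. The one placed on chromosome 8 had a ratio of -0.33, and the brighter one on chromosome 15, which stands for the gene here, had 0.07. Another Rps6 probe, on chromosome 4, where the gene itself lies, also at 45% GC, had 0.02.

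**Figure D3:**
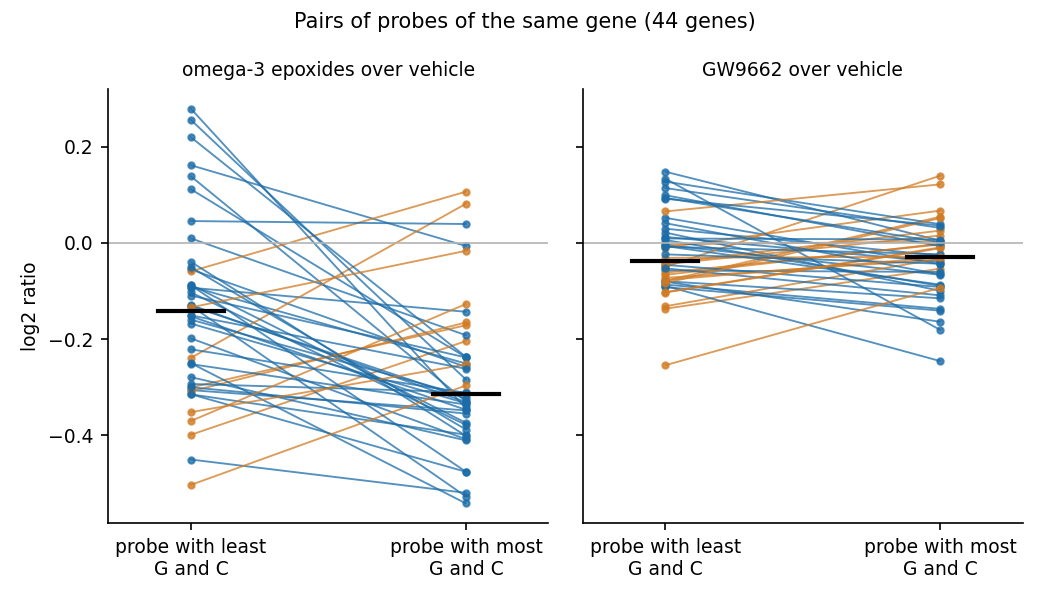
Log2 ratio (vertical axis) of the probe with the least and the probe with the most G and C in each of 44 ribosomal protein genes, for epoxides over vehicle and GW9662 over vehicle. Blue lines mark genes in which the probe with the most G and C was lower (35 and 26 genes) and orange lines the others; black bars are medians (-0.14 and -0.32 for epoxides over vehicle).

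Probes of 1 gene often disagreed. In the 58 genes with 2 or more detected probes, the range of the epoxides over vehicle ratio within a gene had a median of 0.20 and reached 0.72 in Rpl39, whose probes read -0.34, -0.44 and 0.28. The last of these is the dimmest, with levels between -0.40 and -0.12. For GW9662 over vehicle the median range was 0.09. Only 1 probe stands for each of 24 genes.

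A quadratic trend in GC content and mean signal was fitted over the probes well above background on all arrays. When it was removed from each array, the members moved to the middle of the genes. The median ratio of epoxides over vehicle became 0.03 (all genes 0.00), with 33 members below 0 (background 49.1%) and 47 above. None was called lower (background 9.08%) and 7 were called higher (background 6.39%). With only the GC trend removed the median was -0.13 (all genes 0.03). For GW9662 over vehicle the median became 0.03 and for epoxides over GW9662 it became 0.01. The SD among the members hardly changed, from 0.198 to 0.188 for epoxides over vehicle. Rps13 then had a ratio of -0.21 and Rps14 -0.22, while Rps18 (-0.05) and Rplp1 (0.03) lay near 0. Rpl41 had 0.64, Rps6 0.41, Rpl10a 0.38, Rpl10 0.25 and Rps9 0.23. Of these, Rpl41, Rpl10a and Rps9 are read at 55% GC, Rps6 at 45% and Rpl10 at 35%. The lowest value was that of Rpl7a at -0.315, a gene picked out after its values were seen, with levels of 5.65, 5.34 and 5.56. Before removal the epoxides over vehicle ratio fell by 0.25 for each 10 points of GC over all genes and by 0.15 among the members. After it, the members' r with GC content was 0.37, from -0.50, so their values then rose with GC. The trend is fitted to the same arrays, so a change shared by genes with bright probes rich in G and C would be taken off with it.

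**Figure D4:**
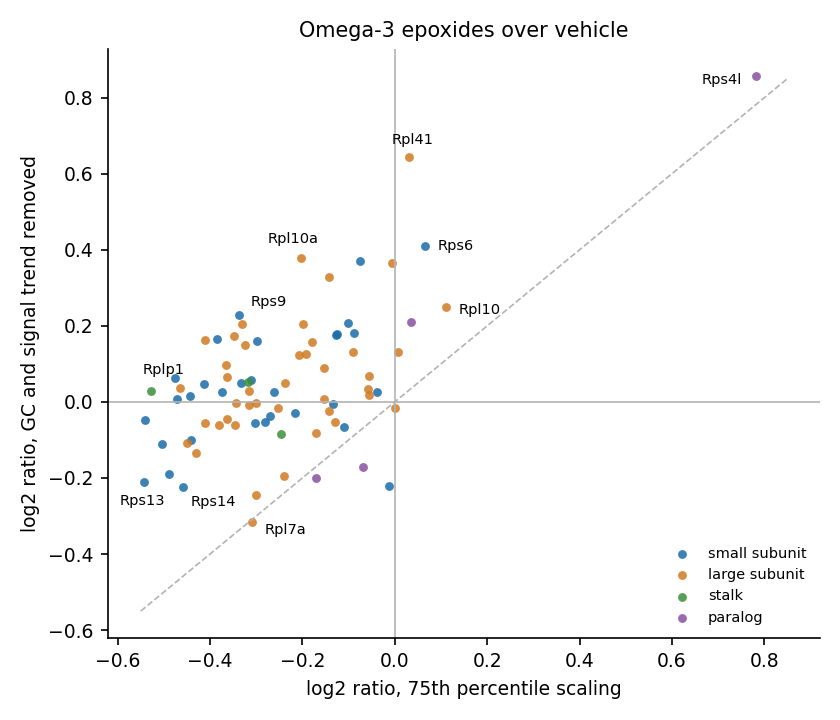
Log2 ratio of epoxides over vehicle for each ribosomal protein gene with 75th percentile scaling (horizontal axis) and after removal of the trend in GC content and signal (vertical axis), coloured by subunit; the dashed line marks equal values. Most points lie above the line, and the median moves from -0.27 to 0.03, with Rpl41 at 0.64 and Rps13 at -0.21.

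The other gene lists had medians nearer to 0 than the ribosomal protein genes. The probes of these lists had median GC contents from 37.5% to 43.3%, beside 45% for the members. Most mitochondrial ribosomal proteins were also read at lower levels than the members, such as Mrpl3 at 2.86 with vehicle. The part of GC content and level in the medians was not tested. Some lists share genes, such as Eef2 and Npm1. The 19 other genes with TOP mRNAs had a median epoxides over vehicle ratio of -0.20. Of these, 16 were below 0 (background 61.1%) and 5 were called lower (background 20.5%). Fau, whose product is cut into a ubiquitin-like part and a ribosomal protein and whose name the rule does not take in, had a ratio of -0.38. It read 7.20, 6.82 and 7.11, with the epoxide array lowest. Rack1, a scaffold protein on the small subunit, read 6.77, 6.42 and 6.61 (ratio -0.34), and Npm1, a chaperone of ribosome assembly, read 5.34, 5.50 and 5.53 (ratio 0.15). The 11 elongation and termination factors had a median of -0.19, with 9 below 0 and 1 called lower, Eef2 (-0.33), the factor that moves the ribosome along the mRNA. Of 33 measured initiation factors, 25 were below 0, 4 were called lower and the median was -0.15. The 77 measured mitochondrial ribosomal proteins, which build a separate ribosome, had a median of -0.07, with 3 called lower. The 30 proteasome subunits had a median of -0.10, with none called lower. For each of these lists the background was again 61.1% below 0 and 20.5% called lower.

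Genes that make ribosomes or control the synthesis of their proteins stayed nearer to 0. The 36 ribosome biogenesis genes had a median of -0.04, with 21 below 0 (background 61.1%) and none called lower (background 20.5%). One was called higher (background 5.26%), Ubtf (0.65), a factor of RNA polymerase I at the ribosomal RNA genes. Ubtf read 4.19 with vehicle, 4.84 with epoxides and 4.26 with GW9662. Of the 22 genes of the control list 8 were below 0 (background 61.1%) and the median was 0.03. Myc, which drives many ribosomal protein genes, read 2.05, 1.97 and 1.75. Mtor read -1.42, -1.39 and -1.41, and Larp1 read 3.64, 3.61 and 3.51. Rheb, the activator of mTOR, read 1.18, 1.72 and 1.26 (ratio 0.55) through a probe of 25.0% GC, and Rps6kb2, an S6 kinase, read -1.52, -2.06 and -1.69 (ratio -0.55) through one of 55% GC. For GW9662 over vehicle the medians of all these lists lay between -0.06 and 0.02, and no gene of them was called lower (background 4.03%).

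**Figure D5:**
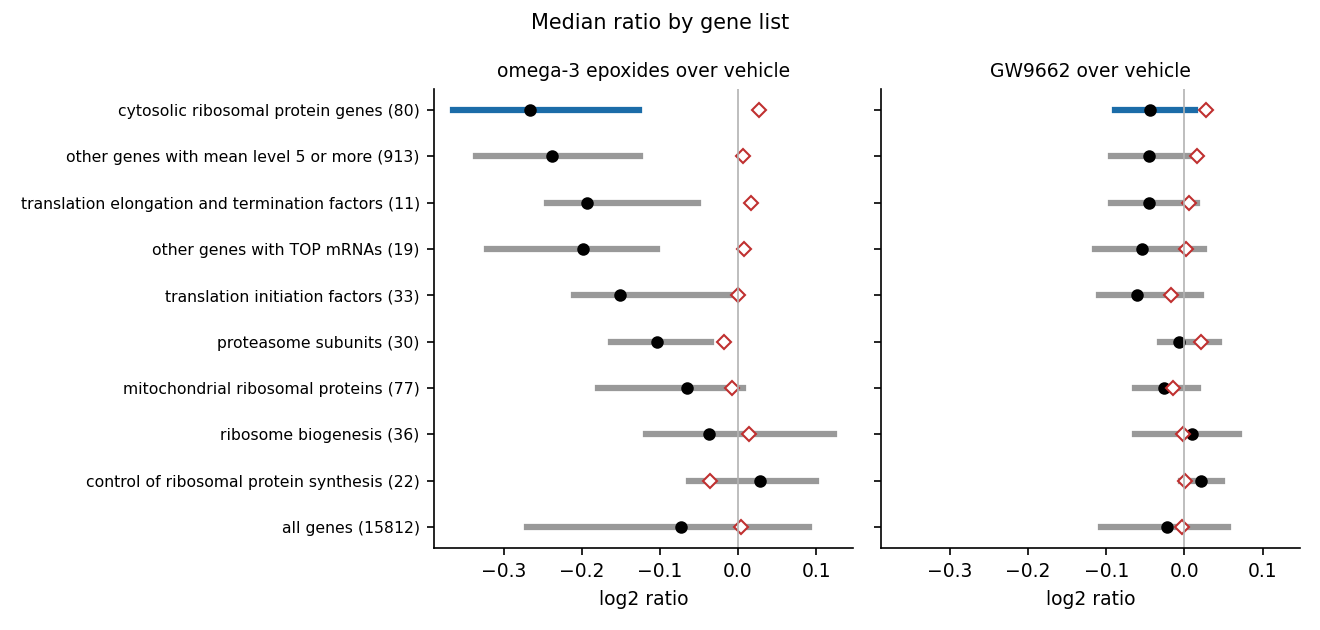
Median log2 ratio (black dots) and middle 50% (bars) of the ribosomal protein genes and of other gene lists, for epoxides over vehicle and GW9662 over vehicle, with the number of genes measured for epoxides over vehicle in brackets. Open diamonds are medians after removal of the trend in GC content and signal. For epoxides over vehicle the ribosomal protein genes are lowest at -0.27 and the diamonds of all lists lie near 0, from -0.04 to 0.03.

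Pyrimidine tracts at the annotated starts were looked for because they define TOP mRNAs. A start was counted when a C at the first base was followed by 4 or more pyrimidines, on the strand of the gene, in the RefSeq promoter table (GRCm38.p6). Of 62 members found in the table, 13 (21.0%) had such a start, against 813 of 27025 genes (3.01%). A missing match says only that these letters are not at this position. Windows of 30 bases, 10 before the start and 20 from it, are given for 5 members with long tracts, which the capitals mark.
Rpl15, chr14:18270967-18270996 (-): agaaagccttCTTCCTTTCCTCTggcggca
Rpl35, chr2:39005112-39005141 (-): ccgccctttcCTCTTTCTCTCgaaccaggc
Rps10, chr17:27635225-27635254 (-): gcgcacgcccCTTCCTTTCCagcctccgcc
Rps18, chr17:33955646-33955675 (-): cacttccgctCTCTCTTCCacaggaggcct
Rps6, chr4:86857348-86857377 (-): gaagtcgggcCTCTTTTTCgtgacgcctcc
The tracts are 13, 11, 10, 9 and 9 bases long. Rps18 and Rps6 have tracts of the same length and stood at -0.54 and 0.07 for epoxides over vehicle. Rpl15 read 6.42, 6.22 and 6.37 (ratio -0.19), Rpl35 read 7.21, 6.86 and 7.21 (ratio -0.35) and Rps10 read 6.92, 6.48 and 6.82 (ratio -0.44), with the epoxide array lowest in each. The median ratio of epoxides over vehicle was -0.24 for the 13 members with such a start and -0.25 for the 46 measured members without one.

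Many probes of these genes do not point to the gene alone. Of 81 probes read for a member and given a position, 54 are placed on another chromosome than the gene itself in the array files, among them the probe read for Rps18. Both Rps18 probes printed above are on chromosome 16, while the RefSeq table has the gene on chromosome 17. The median epoxides over vehicle ratio was -0.28 for these 54 and -0.27 for the 25 measured members with a probe on their own chromosome. A run of 25 or more bases is shared between 36 of the read probes and probes that carry another name. The 57 detected probes of other names with such a run had a median ratio of -0.28. A value given for a member therefore covers the transcripts of near-identical copies too, and which of them gave the signal was not tested.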

How the data were processed

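The 3 scanner files were made with Feature Extraction 11.5.1.1 of Agilent, per the submitters' processing notes. Per the file headers, the processed signal is a linear intensity from which the background and a spatial trend were taken off, and the mean and background signals are intensity values as scanned. The value table deposited by the authors holds a linear ratio of the processed signal to the 75th percentile of the array. No genome build is named by the submitters' notes, and the probe positions are those of the files (mm9).

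Here the processed signal was put on the log2 scale and centred on each array's 75th percentile, taken without control spots. Outlier spots (221 to 251 an array, none of them on a member) were dropped and repeated spots averaged, and the probe with the highest mean level stood for a gene. A gene was measured when it was well above background on both arrays. Copy SDs are medians over 219 probes with 5 or more copies. Calls were counted at 2-fold and at a log2 ratio of 0.32. The members and lists were chosen with earlier results of these data known. Genes named with values were Rpsa, the stalk genes, the paralogs, the 6 brightest and 6 dimmest members, the 5 highest and 5 lowest ratios of each comparison and the 4 members at each end of GC content (35 genes, of which 3 are not reported here). Others were named as probe pairs, for TOP starts or as lists. The 12 alternatives were normexp background correction (offset 50), quantile normalization, cyclic loess (limma 3.58.1 in R 4.3.3), scaling on detected probes, the value table, averaging the probes of a gene, no filter on dim probes, outliers kept, rows 181 to 400 left out, and a quadratic trend in GC content, or in GC content and signal, removed from each array, the last also without those rows. The trend removal was tested on simulated data that held GC trends but no trend in signal. The removal of a signal trend was therefore not tested. Tables were made with Python 3.11.15, numpy 2.4.6 and pandas 2.3.3.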

Additional observations from a re-analysis of the deposited data

Results flagged for a closer look

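A second probe of Rps27a, the gene for a fusion of ubiquitin with a small subunit protein, was above background on the array labelled GW9662 alone, a signal in a probe that the comparisons do not use. It lies near the start of the transcript (position 42) and read -6.31 with vehicle, -6.45 with epoxides and -3.61 with GW9662, a log2 ratio of 2.71 over vehicle as measured. Set against -4.84, the lowest level that counted as well above background with vehicle, the signal was 2.35-fold higher with GW9662. This is not a lower limit, since Col1a2 was at -4.56 with vehicle and was not well above background. Its spot is in row 239, within the rows where copies of a probe disagreed most, and the part of this in the value was not tested. The Rps27a probe used in the comparisons read 7.18, 6.84 and 7.11, a ratio of -0.07 for GW9662 over vehicle, and another probe had a ratio of 0.04.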

How the results depend on the processing

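For epoxides over vehicle the median of the members moved from -0.27 to -0.010 with quantile normalization, -0.089 with cyclic loess, -0.13 with the GC trend removed, 0.027 with the GC and signal trend removed and 0.035 with the rows left out as well. In the same order the count called lower went from 29 to 0, 3, 5, 0 and 0. The background over all genes was 20.5%, then 12.4%, 14.1%, 11% and 9.08%, with none given for the last setting. For epoxides over GW9662 the median moved from -0.23 to -0.024, -0.10, -0.11, 0.012 and 0.00044, and the count from 19 to 0, 1, 1, 0 and 1. Of the 16044 genes measured in that comparison 2277 were called lower, then 1240, 1560, 1235 and 984, with none given for the last setting. The count of members was 11 when the probes of a gene were averaged (no background given). It was 12 with scaling on detected probes, beside 2055 of all genes. With the authors' value table the median, the count and Pearson's r with GC content were -0.045, 0 and -0.34 for epoxides over vehicle, -0.27, 29 and -0.50 for GW9662 over vehicle, and 0.23, 1 and 0.43 for epoxides over GW9662. With the GC trend removed r was 0.36, 0.22 and 0.31 in the same order, with signal too it was 0.37, 0.25 and 0.32, and without the rows as well 0.46, 0.34 and 0.33. Without the rows alone r was -0.61 for epoxides over vehicle and -0.57 for epoxides over GW9662. Without the filter on dim probes it was -0.29 for epoxides over vehicle and -0.058 for GW9662 over vehicle, where 2 members, both below background, counted as lower. With probes of a gene averaged it was -0.50 for GW9662 over vehicle. The cause of these shifts was not tested beyond what each setting removes.

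Of 990 values of named genes under an alternative, 611 stayed within the technical SD, and 379 moved by more. In all, 180 changed sign, 53 of them in the value table, whose treated columns are exchanged. Of the 180, 30 were called values. For epoxides over vehicle the called values that changed sign were Rps14 (0.025) and Rps26 (0.0080) in the value table, Rps26 (0.0074) and Rps9 (0.054) with the GC trend removed, and Rplp1 (0.028), Rpl28 (0.10), Rps26 (0.17), Rps16 (0.063), Rpl29 (0.16) and Rps9 (0.23) with signal too, or 0.024, 0.091, 0.16, 0.055, 0.16 and 0.22 without the rows as well. For epoxides over GW9662, among called values, the value table gave Rplp0 0.34, Rplp1 0.35, Rps4l -0.61, Rps14 0.48, Rps18 0.38, Rps26 0.39, Rps16 0.39 and Rpl29 0.36. The GC and signal trend removed gave Rplp1 0.062, Rps26 0.011, Rps16 0.012 and Rpl29 0.058, and without the rows Rplp1 0.035 and Rpl29 0.029.

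No paired analysis was possible because each group has 1 array, which also leaves no replicate to omit. Spot error is the only error measured, dim probes such as that of Rps4l lie close to background, and 15 measured members cannot be read once the rows are left out.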
